A study of Homo sapiens with 12 samples.

Results

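Cytosolic ribosomal protein genes encode the proteins of the large (RPL genes) and small (RPS genes) subunits of the cytoplasmic ribosome. They were taken from the gene names of the deposited count table that carry an RPL or RPS symbol with a number, with or without a final A, together with the stalk genes, RPSA, RPS4X and the expressed paralogs. Members were chosen by their counts, with 1000 or more summed over all libraries, and the levels below are therefore descriptions. In all 78 of the 60583 gene names were members, 48 of the large and 30 of the small subunit, and 82 names matched before the count minimum. RNA was sequenced from cardiomyocytes derived from RUES2, an established human embryonic stem cell line, labelled as wild type. From day 50 of differentiation the cells spent 3 days on electrospun fibre scaffolds. One was the conductive polymer blend PEDOT:PSS in PVA at 9.75% (here PEDOT), and the other 8% PVA without it, the non-conductive control. Each scaffold had 3 biological replicates with 2 technical libraries each, 12 libraries in all, and the libraries of a replicate were summed to give 3 PEDOT and 3 PVA sums. All samples come from 1 line, and the labels do not say whether biological replicates were separate differentiations or what separates technical libraries, so a p-value here speaks only of how far these particular samples vary.

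Most ribosomal proteins are present in a single copy per ribosome, built around the ribosomal RNAs, and cells assemble both subunits largely in the nucleolus in matched amounts. Many ribosomal protein mRNAs begin with a C followed by a run of pyrimidines, the 5-prime terminal oligopyrimidine (TOP) motif, through which mTOR signalling controls their translation. In heart and skeletal muscle, RPL3L can take the place of RPL3, a protein close to the peptidyl transferase centre. Other members have close paralogs too, among them RPS27L, a p53 target, and RPL22L1, which is known in mouse to rise when Rpl22 is lost.

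The transcription starts of members whose values are described below are shown because they differ in this start feature. They are RefSeq starts of assembly GRCh38.p14, each as 15 bases before and 15 bases from the start on the gene's own strand, with the first 5 transcribed bases in capitals. The acidic stalk protein RPLP1 (chr15:69452803-69452832, plus strand), the exit tunnel protein RPL39 (chrX:119791616-119791645, minus strand), RPL21 (chr13:27251543-27251572, plus strand) and the small subunit protein RPS19 (chr19:41860240-41860269, plus strand) begin with C and a pyrimidine run.
RPLP1: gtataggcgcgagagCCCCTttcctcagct
RPL39: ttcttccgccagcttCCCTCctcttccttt
RPL21: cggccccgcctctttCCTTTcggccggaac
RPS19: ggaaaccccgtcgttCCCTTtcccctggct
The paralogs RPS27 (chr1:153990747-153990776, plus strand) and RPS27L (chr15:63157463-63157492, minus strand) are shown as a pair, as are RPL22 (chr1:6199581-6199610, minus strand) and RPL22L1 (chr3:170870181-170870210, minus strand).
RPS27: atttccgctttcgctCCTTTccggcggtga
RPS27L: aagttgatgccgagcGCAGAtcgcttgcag
RPL22: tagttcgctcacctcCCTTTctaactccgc
RPL22L1: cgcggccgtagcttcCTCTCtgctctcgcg
RPS27L lacks the pyrimidine start that RPS27 has, and both RPL22 and RPL22L1 have it. RPS19 has another listed start, not shown, that lacks it. A start with C within its first 3 bases followed by at least 4 further C or T, read on the gene's own strand only, was found for 47 of 64 members with an entry (73.4%), against 10.95% of all 27305 genes in the promoter table. The share was 72.5% of 40 large subunit genes and 75.0% of 24 small subunit genes. It was 43.3% for translation factors and 11.6% for mitochondrial ribosomal proteins. In these shares a gene counted if any of its listed starts matched. Taken by start, 48 of 80 member starts matched (60.0%), against 8.81% of all starts in the promoter table. The starts of the other 14 members were not used here. The match is a description of letters, not a test of translation.

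Library totals ran from 19.1 to 30.95 M counts, where a count is 1 read pair assigned to a gene. The labelled cell type was checked on 8 cardiomyocyte markers, and all 8 were detected, with a summed level of 65384 to 86854 CPM (counts scaled to library size) in PEDOT sums and 57433 to 77574 CPM in PVA sums. The scaling used the library total and the trimmed-mean (TMM) factors, not gene length, and TTN and MYH6 made up most of the cardiomyocyte sum. Fibroblast markers (6 of 6 detected) summed to 641 to 5158 CPM on PEDOT and 619 to 2826 CPM on PVA. Smooth muscle or pericyte markers summed to 954 to 1738 CPM on PEDOT and 1224 to 2085 CPM on PVA. Endothelial markers reached at most 17.9 CPM on PEDOT and 22.4 CPM on PVA, chiefly KDR. Pluripotent markers reached at most 11.5 CPM on PEDOT and 12.6 CPM on PVA, chiefly TDGF1. Cycling markers summed to 79.0 to 220 CPM on PEDOT and 135 to 196 CPM on PVA. Of 6 skeletal muscle markers 1, MYF5, was at 0, and the list summed to 350 to 546 CPM on PEDOT and 274 to 558 CPM on PVA, chiefly CKM and ACTA1. Technical libraries of 1 sum also differed, by up to 0.18 in the members' median log2 CPM (PEDOT replicate 1). In bulk samples fewer cells of a type and less RNA per cell cannot be told apart.

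Together the members took 3351782 counts, and their share of all counts differed between the scaffolds by less than the SD between replicates. The share was 1.09%, 1.23% and 1.05% in PEDOT replicates 1, 2 and 3, against 1.04%, 1.32% and 1.07% in PVA replicates 1, 2 and 3. The mean was 1.12 ± 0.0957% on PEDOT and 1.14 ± 0.149% on PVA (SD, n = 3 each). Replicate number 2 was the highest on both scaffolds, and the scaffold ranges overlapped. Single libraries ran from 1.01% to 1.32%. The difference PEDOT minus PVA was -0.0206 percentage points, positive in pair 1 (0.0436) and negative in pairs 2 and 3 (-0.0831 and -0.0224), where a pair is the PEDOT and PVA sums of the same replicate number. It turned positive without PVA replicate 2 (0.0649 points) and without PEDOT replicate 3 (0.0157 points).

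The large subunit, with 48 members beside 30 of the small, was represented by more counts than the small on both scaffolds. The ratio of counts therefore follows the number of genes summed as well as their levels. The ratio of large to small subunit counts was 1.63 ± 0.0169 on PEDOT and 1.61 ± 0.0199 on PVA (SD, n = 3 each), with PEDOT 0.0144 higher on average, less than the SD of either scaffold. It was higher on PEDOT in all 3 pairs, by 0.0125, 0.00943 and 0.0212, although the 3 values of the scaffolds overlapped. Divided by exon length, the ratio was 1.29 ± 0.0134 on PEDOT and 1.28 ± 0.0178 on PVA.

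**Figure D1:**
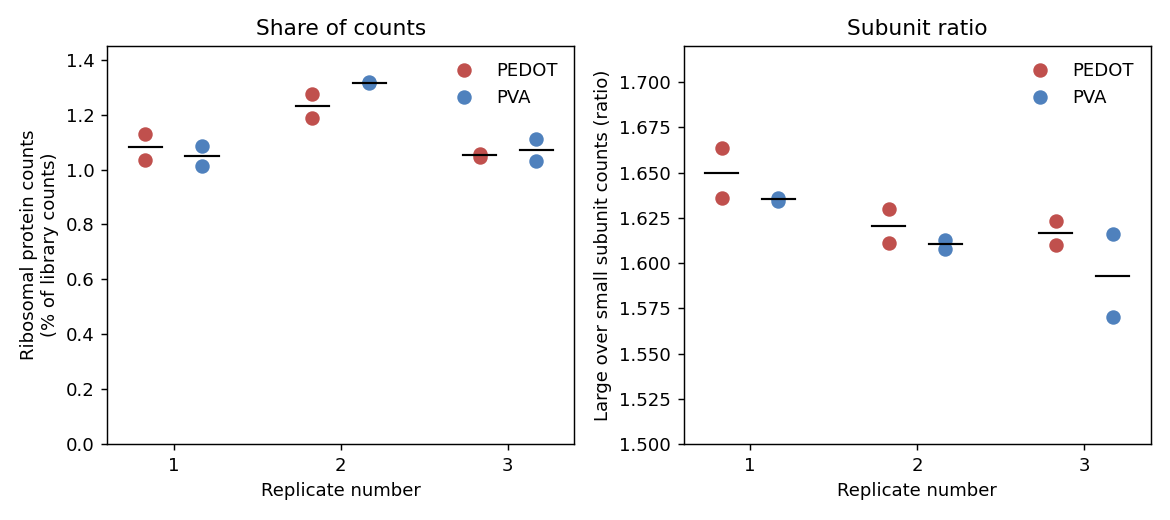
Share of library counts from ribosomal protein members (left, in percent) and the ratio of large to small subunit counts (right, axis starting at 1.5) for the 12 libraries, by replicate number. Points are single libraries, red for PEDOT and blue for PVA, and short bars are the mean of 2 technical libraries. The 4 libraries of replicate number 2 hold 1.19% to 1.32%, above the 8 others on the left, while the ratio stays between 1.57 and 1.66 in all libraries.

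Levels per length covered a wide range within each subunit. The mean over the 6 sums, in CPM per kilobase of exon, was highest in the small subunit for RPS2 (245 ± 30.8), RPS3A (124 ± 12.6) and RPS12 (117 ± 14.1), and in the large subunit for RPL13A (164 ± 20.9), RPL7A (128 ± 11.6) and RPL8 (110 ± 14.2; SD, n = 6). The lowest were RPS29 (2.80 ± 0.485), RPS27L (4.11 ± 1.01) and RPS15A (11.6 ± 1.02) among small subunit members, and RPL17 (3.94 ± 0.42), RPL26L1 (5.18 ± 0.869) and RPL22 (5.82 ± 0.506) among large subunit members. The length is the union of all annotated exons, 9845 bases for RPS29 and 639 for RPS12, so a long annotation lowers the value. Ribosomal protein pseudogenes, copies listed under their own names, also held counts. Their summed counts are not given, because the name pattern used for them also took in the stalk genes RPLP0, RPLP1 and RPLP2. How read pairs divided between single members and pseudogenes was not tested, so the order of members may depend on it. Of the 78 members, 31 share exon bases with another gene on the same strand, RPL17 most (32.7%, chiefly with the readthrough gene RPL17-C18orf32), and read pairs there could not be given to 1 gene.

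Members just inside the count minimum were RPL26L1 (1775 counts), RPL36AL (2720) and RPL17 (2871). Outside it were RPL36A (795) and RPS10 (365), and RPL3L had 61. All 78 members passed the low-count filter, which kept 21298 genes.

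No member passed edgeR's quasi-likelihood test of PEDOT over PVA. Of the 78 members 0 were called at an adjusted p under 0.05, where 0.0% of the 21298 tested genes were called, and 0 members had an unadjusted p under 0.05 (190 of all genes did). DESeq2 and limma also called 0. The median log2 fold change (PEDOT over PVA) was -0.03, from -0.24 to 0.06, with 25 members above 0 and 53 below, beside -0.01 over all genes. The sign of this median turned on single sums. Without PVA replicate 2 it was 0.10, with 72 members above 0, and without PEDOT replicate 3 it was 0.02, with 45. Without PEDOT replicate 2 it was -0.11, with 5 above 0, and without PVA replicate 1 it was -0.10, with 0. By subunit the median was -0.02 for large and -0.04 for small. The 95% interval of a member's fold was typically 0.785 to 1.21 (median bounds), and the widest bounds over all members were 0.61 and 1.52, with scaffold as the only term. With the replicate number as a block the median bounds were 0.892 and 1.09 and the widest 0.73 and 1.19. In that fit 1 of the 78 members, RPS26, had an interval that did not include 1, an unadjusted edgeR p under 0.05. Of all 21298 tested genes, 1771 had such a p in the same fit. The members' median leaned to opposite sides in different pairs, with 0.11 in pair 1, -0.12 in pair 2 and -0.06 in pair 3. In pair 1, 70 members were higher on PEDOT, and in pair 2 only 5 were. In the fit with the block 0 members were called, where 0.268% of genes were.

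**Figure D2:**
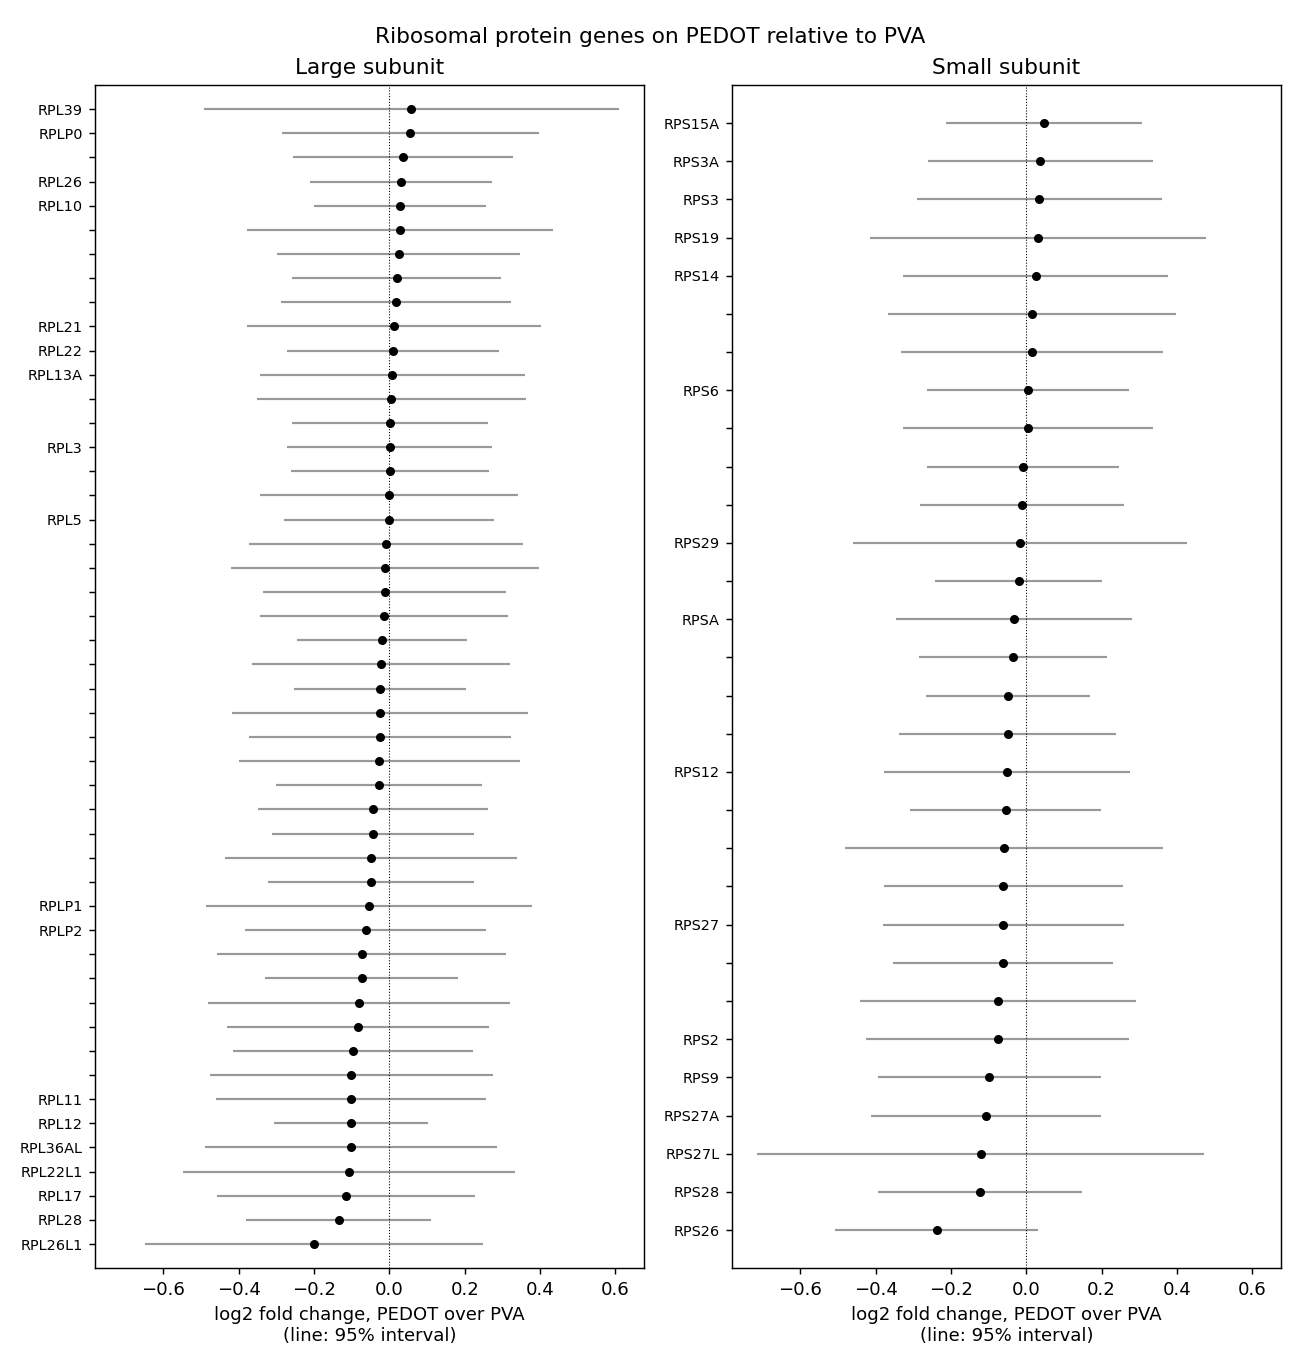
Log2 fold change of each member, PEDOT over PVA, with its 95% interval (grey line) from edgeR on 3 sums a scaffold, large subunit on the left and small subunit on the right, ordered by value, with some members labelled. All 78 intervals include 0, and the members lie between -0.24 (RPS26) and 0.06 (RPL39).

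RPS26 (hg38, chr12:56041351-56044697, plus strand), a protein at the mRNA exit channel whose gene is mutated in Diamond-Blackfan anaemia, was the member furthest from 0. It had 24.72, 24.96 and 21.96 CPM in PEDOT sums, against 26.92, 31.54 and 26.07 CPM in PVA sums. The PEDOT values all lay below the PVA values, the only such separation among the 78 members, while 4.6% of tested genes had sums that do not overlap between the scaffolds. Its log2 fold change was -0.24 ± 0.11 (SE), lower on PEDOT in 3 of 3 pairs, and did not pass the test (edgeR unadjusted p = 0.0742, adjusted p = 0.99999). With the replicate block it had an unadjusted p of 0.00867 and an adjusted p of 0.365 in edgeR. The large subunit members next in order of p were RPL28 (151 ± 13 CPM on PEDOT and 166 ± 13.7 CPM on PVA) and RPL12 (92.1 ± 4.28 and 98.9 ± 6.88 CPM in the same order), with log2 fold changes of -0.14 ± 0.10 and -0.10 ± 0.09 and unadjusted edgeR p of 0.234 and 0.274. Others named below 0 were RPL26L1 (-0.20), RPS28 (-0.12), RPL17 (-0.11), RPS27A (-0.11) and RPS9 (-0.10). Those above 0 included RPL26, RPL10, RPS15A, RPS3A, RPS3 and RPS14, between 0.02 and 0.05 on the log2 scale. RPLP0, the base of the ribosomal stalk, also lay above 0, with 438 ± 30.3 CPM on PEDOT and 422 ± 74.6 CPM on PVA, a difference within the SD. Its stalk partner RPLP2 had 85.9 ± 10.3 CPM on PEDOT and 89.7 ± 12.7 CPM on PVA, and RPSA, the laminin receptor protein, had 219 ± 12.2 CPM on PEDOT and 224 ± 36.6 CPM on PVA. RPL5 and RPL11, which carry 5S ribosomal RNA into the large subunit and bind MDM2, had levels of 217 ± 14.3 and 47.7 ± 6.20 CPM on PEDOT, against 217 ± 28.7 and 51.1 ± 8.83 CPM on PVA, and RPS6, a substrate of S6 kinase, had 214 ± 12.8 CPM on PEDOT and 213 ± 26.2 CPM on PVA.

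RPL3L (hg38, chr16:1943974-1957606, minus strand) had counts in all 12 libraries but few, 1 to 13 a library. Its 33 counts in PEDOT sums (24, 4 and 5 in replicates 1, 2 and 3) stood beside 28 in PVA sums (12, 6 and 10). RPL3 had 22435, 21071 and 19354 counts on PEDOT and 17993, 22249 and 22503 counts on PVA. Per length, RPL3L was 0.0863 ± 0.0834% of RPL3L plus RPL3 on PEDOT and 0.0785 ± 0.0339% on PVA (SD, n = 3 each). On coding length it was 0.0501 ± 0.0484% on PEDOT and 0.0456 ± 0.0197% on PVA, so the level depends on the length used. The difference of 0.00774 percentage points had an exact two-sided permutation p of 1.0 (the smallest possible is 0.1). The mean difference turned negative without PEDOT replicate 1, at -0.0403 points, and without PVA replicate 2, at -0.00851 points, so with so few counts no direction can be read. RPL3 itself had 426 ± 24.3 CPM on PEDOT and 425 ± 51 CPM on PVA.

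Of the other paralogs, RPS27L and RPL26L1 lay below their partners per exon length and RPL36AL above, and none passed the edgeR test of PEDOT over PVA. RPS27L, at 34.7 ± 9.19 CPM on PEDOT and 37.8 ± 10.4 CPM on PVA, had 4.11 CPM per kilobase, against 33.003 for RPS27, over the 6 sums. RPS27 had 33.2 ± 4.36 CPM on PEDOT and 34.6 ± 4.02 CPM on PVA, so the order per kilobase rests on the annotated lengths, 8825 bases for RPS27L and 1028 for RPS27. RPL22L1 had 13.4 ± 2.44 CPM on PEDOT and 14.4 ± 2.39 CPM on PVA, with 6.76 CPM per kilobase beside 5.82 for RPL22. RPL22 had 27.3 ± 2.51 CPM on PEDOT and 27.1 ± 2.75 CPM on PVA, so this order too rests on the lengths, 2051 bases for RPL22L1 and 4665 for RPL22. RPL26L1 (5.61 ± 0.473 and 6.45 ± 1.35 CPM on PEDOT and PVA) had 5.18 CPM per kilobase beside 11.6 for RPL26. RPL36AL, a member, had 13.7 CPM per kilobase, against 0.68 for RPL36A, which was under the count minimum.

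**Figure D3:**
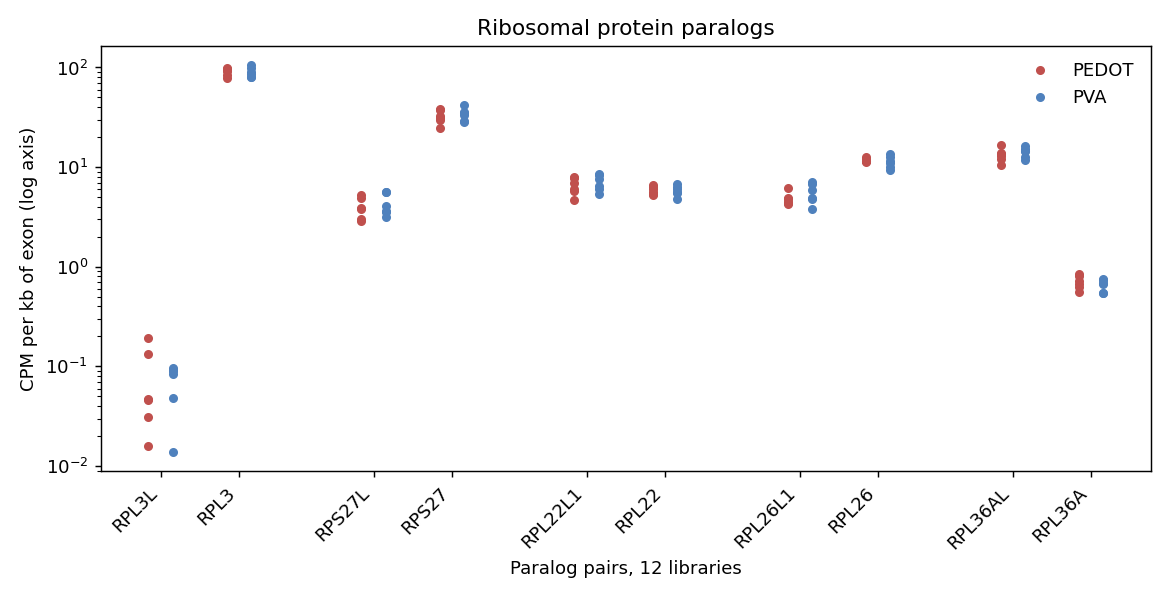
Levels of the paralog pairs in CPM per kilobase of exon (log axis) for the 12 libraries, PEDOT in red and PVA in blue. RPL3L lies about 3 orders of magnitude under RPL3, while RPL22L1 and RPL22 overlap, and no pair shows a separation between the scaffolds.

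Members did differ between replicate numbers, which the labels share between scaffolds. With scaffold in the model, edgeR's F test called 49 of 78 members (62.8%), 29 of 48 large and 20 of 30 small subunit members, where 31.8% of all genes were called. Replicate 2 was higher than replicate 1 with a median log2 difference of 0.30, 1.23-fold, in 76 of 78 members, and 50 were called higher and 0 lower, where 13.3% of genes were called higher. That median was 0.40 with the lower-numbered technical library of each sum alone and 0.20 with the higher-numbered, so its size varied between technical libraries. Replicate 2 over replicate 3 had a median of 0.23, 1.17-fold, with 77 members above 0 and 30 called higher and 1 lower, where 7.57% of genes were called higher. Replicate 3 over replicate 1 had a median of 0.05 with 1 member called higher (RPLP1), where 6.79% of genes were. In 64 of 78 members replicate 2 was the highest on both scaffolds, beside 23.9% of all tested genes. Without PVA replicate 2, 16 members were called (20.5% of members, and 20.5% of genes), and with the higher-numbered technical library of each sum alone 30 were (38.5% of members, and 26.4% of genes). With only genes at a mean CPM of 5 or more, 45 members were called (57.7%), beside 40.5% of genes.

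RPS27L, RPL39 and RPS19 were among the members of smallest p in the test of replicate number. RPS27L had 44.4 CPM on PEDOT and 49.7 CPM on PVA in replicate 2, above the 33.8 and 33.7 CPM of replicate 1 and the 26.07 and 30.006 CPM of replicate 3 (PEDOT, then PVA). Both scaffolds showed replicate 2 highest and replicate 3 lowest. Its log2 differences were 0.48 (replicate 2 over 1) and 0.75 (replicate 2 over 3), and the F test in edgeR gave an adjusted p = 4.81e-05. RPL39 had 29.8 CPM on PEDOT and 30.8 CPM on PVA in replicate 2, above 21.2 and 17.7 CPM in replicate 1 and 21.8 and 21.5 CPM in replicate 3, with log2 differences of 0.64 and 0.48 (adjusted p = 0.000522). RPS19, mutated in Diamond-Blackfan anaemia, had 113 CPM on PEDOT and 118 CPM on PVA in replicate 2, above 85.1 and 75.7 CPM in replicate 1 and 87.8 and 86.3 CPM in replicate 3, with log2 differences of 0.52 and 0.40 (adjusted p = 0.000409). RPLP1, RPL21 and RPS29 were also called, at log2 differences (replicate 2 over 1) of 0.54, 0.47 and 0.50.

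RPL22L1, the paralog of RPL22, was an exception. It had 10.55 CPM on PEDOT and 12.96 CPM on PVA in replicate 2, beside 14.51 and 17.13 CPM in replicate 3 and 14.99 and 13.04 CPM in replicate 1. On PEDOT replicate 2 was the lowest, and on PVA replicates 2 and 1 were level. Its log2 difference of replicate 2 over replicate 3 was -0.43, the 1 lower call (adjusted p = 0.0333 for that contrast), while its F test did not pass (adjusted p = 0.0551). RPL10, which joins the large subunit late in its assembly, showed next to no difference over both scaffolds together (-0.03 and 0.01). The scaffolds went opposite ways, with 277 CPM in replicate 2 against 323 in replicate 1 on PEDOT, and 309 against 277 on PVA. PEDOT replicate 1 includes the RPL10 library flagged below. Members with a pyrimidine start had a median log2 difference (replicate 2 over 1) of 0.32 (47 genes, 33 called) and members without one 0.20 (17 genes, 6 called). The 14 members whose start was not used had 0.32 (10 called). These calls are from the F test of replicate number, which called 31.8% of all genes. The comparison by start is a description without a test.

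**Figure D4:**
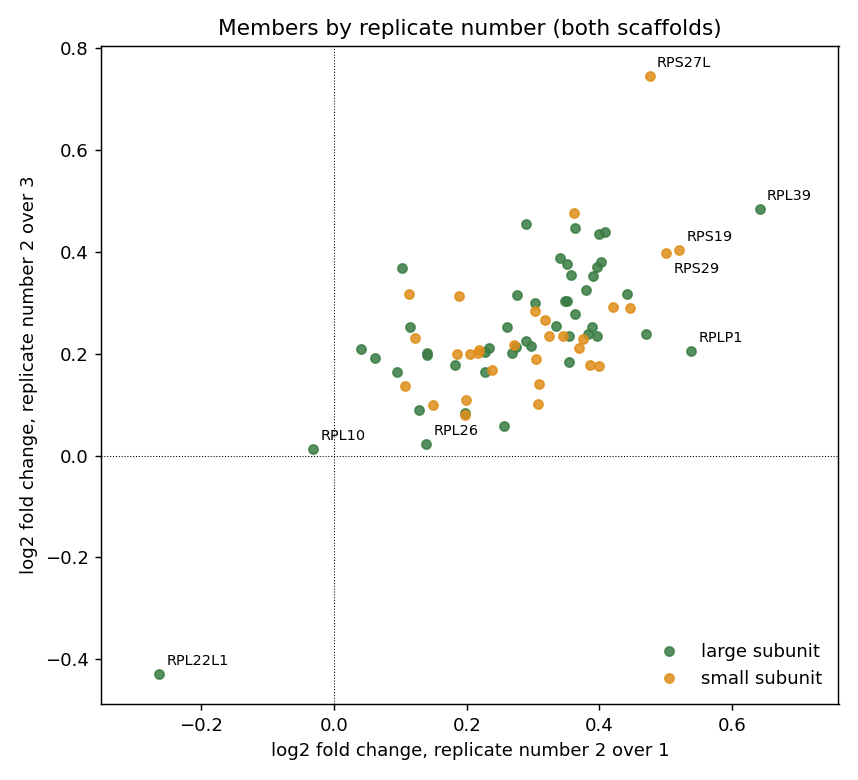
Log2 differences of each of the 78 members, replicate number 2 over 1 (horizontal) and 2 over 3 (vertical), over both scaffolds, with large subunit members in green and small subunit members in orange. In the upper right lie 76 of the points, RPS27L and RPL39 furthest out, and RPL22L1 stands alone at lower left.

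Cell type markers also differed by replicate number. Fibroblast markers summed to 641 CPM on PEDOT and 619 CPM on PVA in replicate 2, against 2767 and 2472 CPM in replicate 3 and 5158 and 2826 CPM in replicate 1. COL1A1 and COL3A1 make up most of this sum. In replicate 2 over 1, 4 of 6 were called lower and POSTN was called higher (log2 difference 1.55), with PDGFRA at -0.22. Of all 21298 tested genes, 3336 were called lower in that contrast and 2826 higher. Cardiomyocyte markers had a median log2 difference (replicate 2 over 1) of 0.44, and smooth muscle markers one of -1.23, with 6 of 6 called lower. Mitochondrially encoded genes took 5.01% of counts in replicate 2, 4.06% in replicate 1 and 5.13% in replicate 3, so replicate 1 was the one apart there. Their part in the members' difference was not tested. For the members, replicate number accounted for a median 86.2% of the variance in log2 CPM over the 6 sums, and scaffold for 1.63%. All tested genes had medians of 70.4% and 6.10%, and the 11168 with a mean CPM in the members' range had 76.9% and 5.08%. Replicate number has 3 levels and scaffold 2, so the shares are not on equal terms.

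Genes that act with the ribosome were read in the same fits, from lists chosen with earlier results known. Between the scaffolds 0 genes of each list were called. By replicate number, where 31.8% of all genes were called, mitochondrial ribosomal proteins had 24 of 77 called (31.2%), with a median log2 difference (replicate 2 over 1) of 0.26 beside 0.30 for the cytosolic members, and 31 called higher and 0 lower in that contrast. Among them were MRPL41 (0.70), MRPL28 (0.57) and MRPS18B (0.54). Translation factors had 9 of 38 called (23.7%) and a median of 0.16 (11 higher and 0 lower in replicate 2 over 1), with EEF1A2, the muscle form of elongation factor 1A, at 0.78. Ribosome biogenesis factors had 1 of 58 called (NOP10, a box H/ACA protein, 0.34) and a median of 0.01 (2 higher and 2 lower). RNA polymerase I genes had 4 of 12 called (33.3%; 2 higher and 2 lower), and chaperones and quality control factors of ribosomal proteins 1 of 14 (7.14%; ZNF622, 0.54). Other genes with TOP mRNAs had 6 of 21 called (28.6%; 4 higher and 1 lower in replicate 2 over 1), among them VIM, an intermediate filament gene high in fibroblasts, at -1.07.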

How the data were processed

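Per the labels, RNA was ribodepleted and sequenced, and per the file headers the authors deposited unnormalized counts (read pairs summed by gene name) from featureCounts 2.0.1 (reversely stranded, strand setting 2) on GENCODE release 33. The submitters' processing notes name STAR and hg38, and the aligner's version is not given in the sources used here. The gene length in the table, another deposited value per the file headers, is the union of a gene's exons in bases. The members and gene lists were chosen with earlier results of these data known. Technical libraries (differing by more than sampling noise) were summed to 6 sums of 3 and 3, with totals of 44.5 to 57.5 M counts. filterByExpr (minimum count 10, total 15) set which genes were tested, and counts were scaled by TMM and tested with edgeR 4.0.16 in R 4.3.3 (glmQLFit, glmQLFTest, two-sided, Benjamini-Hochberg over all kept genes, threshold 0.05), with scaffold as the only term, or with replicate number and scaffold for the replicate test. DESeq2 1.42.0 and limma 3.58.1 were alternatives. SE is the log2 fold change over the square root of F. Same-numbered sums' deviations from their scaffold mean correlated at 0.678, 0.703 and 0.503, other sums' at -0.609 to -0.005. Deviations cancel out within a scaffold, so positive same-number values push the others to the negative side and these add no support. The numbers were taken to pair the samples from the same-number values, not from a label. The procedure was tested on simulated data. Named members were the paralog pairs, the stalk and RPSA, the members of smallest p per subunit (4 per direction between scaffolds, 3 by replicate number), the 3 highest and 3 lowest per length, and the 3 rows either side of the count minimum. Some results under this rule are not reported here. RPL5, RPL11 and RPS6 were chosen for their roles after their values were seen. Intervals cover counting error and sample spread only.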

Additional observations from a re-analysis of the deposited data

Results flagged for a closer look

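In 82 groups of 6 libraries, 4 had a library set apart from the other 5. The groups are the named members and 3 summary values, each on PEDOT and on PVA. With 6 independent values, chance flags about 1 in 20 groups. Each group here holds 2 technical libraries from each of 3 replicates, and the groups share libraries. The chance rate for such groups is therefore not known, and the flags are descriptions.
RPL10 had 346 CPM in 1 PEDOT library of replicate 1, where the 5 others had 278 to 298 CPM. RPSA, the laminin receptor protein of the small subunit, had 185 CPM in the other PEDOT library of replicate 1, where the 5 others had 222 to 231 CPM, and RPS9 had 92.5 CPM in that same library, where the others had 117 to 129 CPM. RPL26L1 had 7.25 CPM in a PEDOT library of replicate 2, where the others had 4.95 to 5.67 CPM. The cause was not tested.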

How the results depend on the processing

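No member was called between PEDOT and PVA under any setting run, and the members' median log2 fold change ran from -0.11 to 0.10 when each replicate was left out (without PEDOT replicate 2 and without PVA replicate 2). Over all genes, the replicate block called 57 genes, and the 12 libraries as samples with the replicate block called 194, where the fit without the block called 0; the block left the members' call unchanged. The members' share difference, PEDOT minus PVA, ran from -0.0748 to 0.0649 points over the left-out replicates, and the subunit ratio difference from 0.00466 to 0.025. For replicate number, leaving out a sum gave 16 to 65 called members, the fewest without PVA replicate 2, where 20.5% to 33.4% of all genes were called. The higher-numbered technical libraries gave 30, where 26.4% of genes were called, against 49. The RPL3L share difference turned to -0.00287 with the higher-numbered technical libraries, and over left-out replicates it ran from -0.0403 to 0.0347 points; the cause was not tested. Of the named members' values for PEDOT over PVA under the alternatives 913 kept within the spread and 9 moved, 8 of them without PVA replicate 2. For replicate number, 447 of their values stayed alike, 35 moved, 31 newly passed the threshold and 39 no longer did. The planned length from a RefSeq protein was not run, and coding length from GENCODE, chosen after seeing the data, stood in for it and gave 0.0045 points. Settings with the block under other scalings or without a pair were also added after seeing the data, and 0 members were called.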
